A study of Mus musculus with 6 samples.

Results

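The 10 genes described here make, sense or clear extracellular adenosine, or build and break down the cyclic AMP (cAMP) that adenosine receptors raise inside the cell. They were chosen by name from the count table of a mouse regulatory T (Treg) cell experiment: Entpd1 and Nt5e, Adora2a and Adora2b, Ada, Slc29a1, Pde3b, Pde4b and Pde4d, and Adcy7. All 10 were found among the 22939 genes of the table. Naive CD4+ T cells of C57BL/6J mice with GFP knocked into Foxp3 were driven to the Treg fate by plate-bound anti-CD3 with anti-CD28, TGF-β1, and antibodies that block IFN-γ and IL4, with sorafenib (Sora-Treg, 3 libraries) or without it (ctrl-Treg, 3 libraries). Sorafenib is a multikinase inhibitor used against hepatocellular carcinoma. GFP marks cells that transcribe Foxp3, the lineage factor of Treg cells, and GFP+ cells were sorted before RNA was taken, so both groups are in vitro induced Treg cells that carry the reporter allele and were stimulated alike. The sorafenib dose and culture time of these libraries, the age of the reporter mice, and whether the 3 libraries of a group came from separate cultures or mice are not given in the sources used here, so the p-values measure the spread between these libraries, which may be technical.

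Extracellular ATP is cut to AMP by CD39, the product of Entpd1, and AMP is cut to adenosine by CD73, the product of Nt5e. Treg cells are known for carrying both enzymes, and adenosine is one of the means by which they restrain other T cells. Adenosine binds the Gs-coupled receptors encoded by Adora2a and Adora2b, which activate adenylyl cyclases such as Adcy7 to make cAMP. Phosphodiesterases of the PDE3 and PDE4 families (Pde3b, Pde4b, Pde4d) hydrolyse cAMP, adenosine deaminase (Ada) turns adenosine into inosine, and the equilibrative transporter ENT1 (Slc29a1) carries adenosine across the membrane.

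The libraries held between 30727686 and 37717324 counted reads. Levels below are CPM, counts scaled to a common library size with the TMM correction for differences in composition, unless FPKM, a level per kilobase of gene length, is named. The 8 Treg and CD4 T cell markers summed to between 4113 and 4164 CPM in ctrl-Treg and to between 7054 and 7170 CPM in Sora-Treg, and 7 of the 8 were called higher. Il2ra (mean 1934 and 3795 CPM) and Ctla4 (383 and 1108 CPM) carried most of the rise of that sum, while Foxp3 stood at 258.5 and 272.3 CPM with overlapping groups, Cd4 at 679 and 709 CPM, and Ikzf2, at 146.6 and 148.8 CPM, was not called. The 9 myeloid markers summed to between 149 and 232 CPM in ctrl-Treg and to between 144 and 177 CPM in Sora-Treg, and 6 of the 9 were at least 2-fold higher in ctrl-Treg 1 and 2 than in ctrl-Treg 3. Of the 9, 5 were called lower (Lyz2, Csf1r, Itgam, Adgre1 and Cd14, log2 fold changes of -1.80, -1.68, -1.55, -1.71 and -1.65), with overlapping groups. Their SEs were between 0.38 (Adgre1) and 0.50 (Cd14). Ctss, the most abundant of the 9, stood at a mean of 105.8 and 101.3 CPM. The 6 B cell markers summed to between 10.02 and 11.1 against 6.18 and 7.81 CPM, the 4 dendritic cell markers to between 15.3 and 17.2 against 4.28 and 4.86 CPM, and the 2 CD8 T cell markers to between 13.2 and 15.1 against 12.6 and 13.8 CPM. A single gene carried most of the B cell sum, Cd79b (mean 8.39 and 6.57 CPM), and of the dendritic sum, Zbtb46 (mean 15.4 and 4.13 CPM). The defining genes Ms4a1 (B cells, at most 7 counts), Itgax (at most 8) and Xcr1 (at most 2), both of dendritic cells, were near 0, and the 3 erythroid markers summed to at most 0.157 CPM. In RNA from a sorted population, fewer cells of a type and less RNA per cell cannot be told apart, and the part of these marker differences in the results below was not tested.

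In Sora-Treg, 6 of the 10 genes were called higher than in ctrl-Treg (Entpd1, Pde4d, Pde3b, Adora2b, Nt5e and Adcy7), 3 were called lower (Ada, Adora2a and Slc29a1), and Pde4b was not called. With libraries scaled by their totals alone the split was 5 higher and 4 lower. A call is an adjusted p under 0.05 in edgeR's quasi-likelihood test, with Benjamini-Hochberg adjustment over the 13463 genes tested. By that rule 59.6% of all tested genes were called, 29.7% higher and 29.9% lower. The same shares are the background for each list of genes counted below. With the added demand of a log2 fold change beyond 1, Entpd1 and Pde4d were called higher and Ada lower, 3 of 10, where 11.3% of all tested genes were (6.3% higher and 4.97% lower). The libraries of the groups did not overlap for 8 of the 10, as for 63.7% of all tested genes. The median log2 fold change of the 10 was 0.17, and that of all tested genes was -0.0035.

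**Figure D1:**
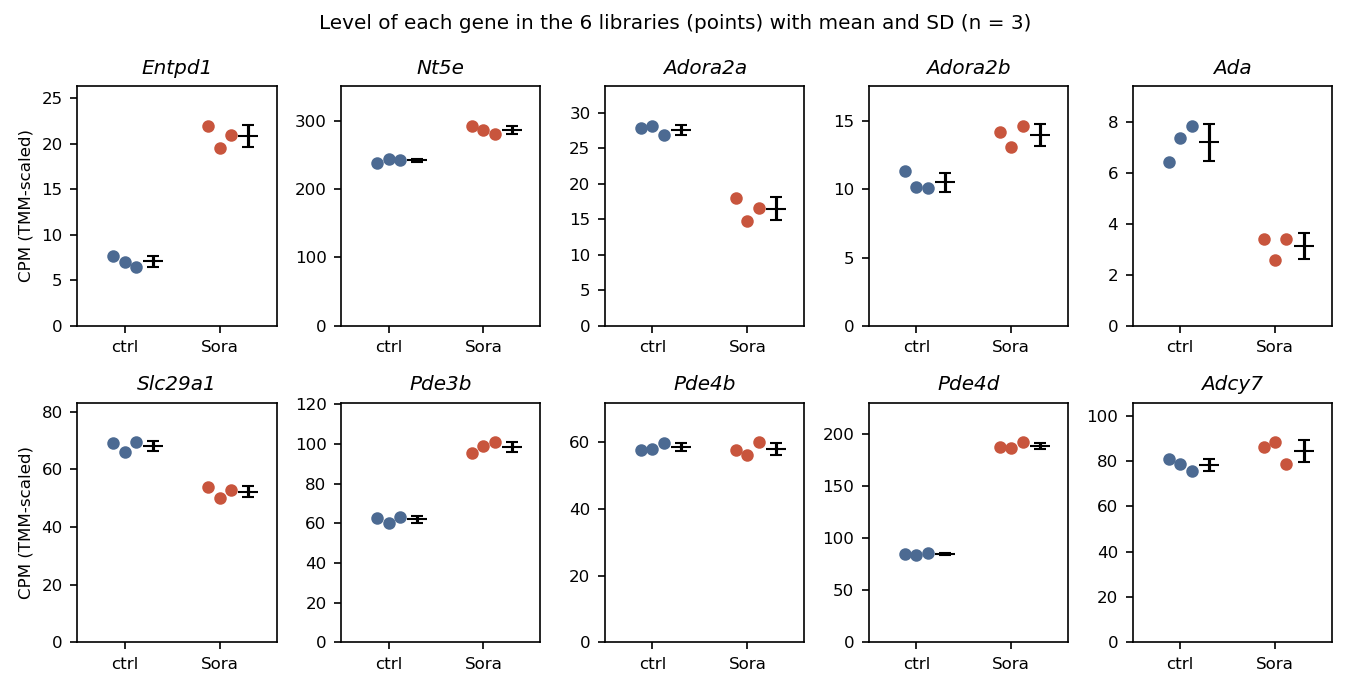
Level of each gene (TMM-scaled CPM, vertical axes starting at 0) in the 3 ctrl-Treg and 3 Sora-Treg libraries as points, with the mean and SD (n = 3) of each group. The groups are apart for Entpd1, Nt5e, Adora2a, Adora2b, Ada, Slc29a1, Pde3b and Pde4d, and overlap for Pde4b and Adcy7.

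Of the enzymes that make adenosine, Entpd1 rose from a low level and Nt5e, already among the more abundant transcripts, rose slightly. Entpd1 stood at 7.67, 7.06 and 6.51 CPM in ctrl-Treg 1, 2 and 3 and at 21.95, 19.6 and 21.01 CPM in Sora-Treg 1, 2 and 3. The lowest Sora-Treg library was 11.9 CPM above the highest ctrl-Treg library. Its log2 fold change was 1.55 ± 0.09 (SE), a 2.93-fold rise (edgeR adjusted p = 7.23e-13), rank 438 from the top among the 13463 genes tested. On log2(FPKM + 1) the rise was 1.02, a scale that understates the change of low genes. Nt5e stood at 238.5, 243.5 and 243.2 CPM in ctrl-Treg and at 292.2, 286.6 and 280.0 CPM in Sora-Treg, a level above that of 95.5% of tested genes. The groups did not overlap, but the change was small: a log2 fold change of 0.24 (SE 0.03, adjusted p = 1.39e-07 by edgeR), and 0.13 when libraries were scaled by their totals alone. The Nt5e to Entpd1 ratio of FPKM fell from 47.5 to 19.1 (geometric means), so Nt5e remained the higher of the pair in each library.

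Entpd1 is also expressed by myeloid cells and B cells. The summed markers of myeloid, B and dendritic cells were not above the ctrl-Treg range in any Sora-Treg library. Without ctrl-Treg 1 and 2, the libraries with the highest myeloid sum, the log2 fold change of Entpd1 was 1.68. That value rests on ctrl-Treg 3 alone, whose myeloid sum of 149 CPM was below the 177 CPM of Sora-Treg 2. The part of such cells in the rise of Entpd1 was not tested. Entpd1 lies on chromosome 19 (40612366 to 40741602, plus strand, RefSeq, GRCm38.p6) and Nt5e on chromosome 9 (88327609 to 88372089, plus strand). The annotation places 3 other genes within the span of Entpd1, none of them in the count table.

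The promoter of Entpd1 is shown with those of the 2 other genes that passed the fold limit, Pde4d and Ada, so that genes that passed it in either direction can be read together. Each sequence, from RefSeq (GRCm38.p6), runs 5′ to 3′ on the gene's own strand from 250 bases before a transcript's start to 50 after it. Capitals mark TGACG or its reverse complement CGTCA, the core of the cAMP response element (CRE) that CREB factors bind. The RefSeq windows hold 2 starts of Entpd1, at chr19:40612116-40612415 and chr19:40659520-40659819, both on the plus strand. The Pde4d window is chr13:108653927-108654226 on the plus strand, and that of Ada is chr2:163750190-163750489 on the minus strand.
Entpd1 upstream start: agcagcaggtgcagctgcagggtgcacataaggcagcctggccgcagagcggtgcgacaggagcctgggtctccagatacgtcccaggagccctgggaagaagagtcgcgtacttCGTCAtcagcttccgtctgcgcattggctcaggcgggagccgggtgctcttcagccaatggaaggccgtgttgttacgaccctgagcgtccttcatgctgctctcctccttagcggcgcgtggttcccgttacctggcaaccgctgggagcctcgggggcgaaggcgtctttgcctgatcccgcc
Entpd1 downstream start: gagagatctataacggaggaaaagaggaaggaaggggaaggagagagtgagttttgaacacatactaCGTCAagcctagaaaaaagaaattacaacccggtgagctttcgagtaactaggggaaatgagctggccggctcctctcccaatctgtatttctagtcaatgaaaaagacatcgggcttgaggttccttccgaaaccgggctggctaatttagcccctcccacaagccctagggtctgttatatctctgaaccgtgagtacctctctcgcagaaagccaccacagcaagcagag
Pde4d: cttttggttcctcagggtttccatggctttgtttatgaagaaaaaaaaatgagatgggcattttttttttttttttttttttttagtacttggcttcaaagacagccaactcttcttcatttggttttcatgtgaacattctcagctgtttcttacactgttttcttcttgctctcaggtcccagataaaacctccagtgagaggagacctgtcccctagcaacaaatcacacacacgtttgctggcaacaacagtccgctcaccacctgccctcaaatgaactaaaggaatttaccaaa
Ada: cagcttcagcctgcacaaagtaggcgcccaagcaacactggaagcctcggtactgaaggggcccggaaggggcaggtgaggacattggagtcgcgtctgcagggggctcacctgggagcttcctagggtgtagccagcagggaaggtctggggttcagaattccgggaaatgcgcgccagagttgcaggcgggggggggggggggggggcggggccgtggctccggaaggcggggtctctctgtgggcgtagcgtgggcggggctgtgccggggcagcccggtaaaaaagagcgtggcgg
Both Entpd1 windows hold the core as CGTCA, its first base at -135 and -183 from the start, and the Pde4d and Ada windows hold none. The Pde4d window covers the upstream end of the gene alone, and counts per gene do not show which start these cells used. Of the 21 windows given for 8 of the 10 genes, 5, belonging to Entpd1, Pde4b, Adcy7 and Slc29a1, hold the core, as do 20.8% of all 32851 promoter windows of the same length. The full palindrome TGACGTCA, which contains the core, is in 0 of the 21 and in 1.79% of all. GTAAACA, a motif of FOXO factors, was searched on both strands too and is in 0 of the 21 and in 3.65% of all. These matches describe the letters of the windows and were not tested for binding.

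Around these enzymes, 15 other genes of enzymes that split nucleotides or NAD were tested, of which 7 were called higher and 3 lower. The median log2 fold change was 0.18, and 4 were called in each direction with libraries scaled by their totals alone. Among those higher was Entpd2, at 19 counts or fewer in each library. Its call was lost in 9 of the 15 alternatives that tested it. Enpp2, a phosphodiesterase of the ENPP family best known as autotaxin, rose from 2.13, 2.56 and 2.44 CPM to 22.1, 21.8 and 20.1 CPM, a log2 fold change of 3.17. Cd38, an NAD glycohydrolase, rose from 2.39, 2.36 and 1.91 CPM to 6.89, 7.84 and 8.60 CPM (log2 fold change 1.80), and Enpp1, which can release AMP from ATP, rose from 18.9, 16.5 and 18.5 CPM to 37.5, 35.04 and 35.5 CPM. Nt5c3b, a nucleotidase, rose by a log2 fold change of 0.32.

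The Gs-coupled adenosine receptors moved in opposite directions. Adora2a stood at 27.8, 28.2 and 26.8 CPM in ctrl-Treg and at 18.03, 14.8 and 16.6 CPM in Sora-Treg, so each Sora-Treg library was at least 8.81 CPM below each ctrl-Treg library. Its log2 fold change was -0.75 (SE 0.07, adjusted p = 1.03e-08 by edgeR). Adora2b, whose product binds adenosine with lower affinity than that of Adora2a, stood at 11.3, 10.2 and 10.1 CPM in ctrl-Treg and at 14.2, 13.1 and 14.6 CPM in Sora-Treg. The groups were only 1.79 CPM apart at their nearest libraries, and the log2 fold change was 0.41 (SE 0.09, adjusted p = 4.25e-04 by edgeR). It was 0.29 with libraries scaled by their totals alone and 0.26 on log2(FPKM + 1), higher under each.

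Per length, the order of the receptors turned over. Adora2a made up 60.3, 63.1 and 62.4% of the summed FPKM of the 4 adenosine receptor genes in ctrl-Treg and 43.9, 41.2 and 41.2% in Sora-Treg. Adora2b made up 37.8% ± 1.43 (SD, n = 3) in ctrl-Treg and 57.3% ± 1.76 (SD, n = 3) in Sora-Treg. The exact permutation test of either share gave p = 0.1, the smallest that 3 against 3 libraries allow. The summed FPKM of the receptors was 15.7 ± 0.594 (SD, n = 3) in ctrl-Treg and 12.7 ± 0.931 (SD, n = 3) in Sora-Treg. Adora1 had at most 2 counts and Adora3 at most 9 in any library, below the filter on low counts, so the family was in effect Adora2a and Adora2b at this depth. Adora2a lies on chromosome 10 (75316877 to 75334792, plus strand) and Adora2b on chromosome 11 (62248984 to 62266452, plus strand).

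The genes that remove adenosine were lower in Sora-Treg. Ada stood at 6.43, 7.39 and 7.86 CPM in ctrl-Treg and at 3.43, 2.57 and 3.43 CPM in Sora-Treg. The groups did not overlap, and the level was low: between 251 and 269 counts in ctrl-Treg and between 82 and 122 in Sora-Treg. Its log2 fold change was -1.20 (SE 0.15, adjusted p = 3.19e-07 by edgeR), 0.436 of the ctrl-Treg level and rank 540 from the bottom among all tested genes. Slc29a1 stood at 69.2, 66.2 and 69.3 CPM in ctrl-Treg and at 53.8, 50.2 and 52.8 CPM in Sora-Treg. Here too the groups were apart, with a log2 fold change of -0.38 (SE 0.04, adjusted p = 8.14e-08 by edgeR). Ada lies on chromosome 2 (163726571 to 163750239, minus strand) and Slc29a1 on chromosome 17 (45585200 to 45599618, minus strand). Slc29a1 overlaps the annotated gene Gm17080, which is not in the count table. Whether the counting used strand is not given in the sources used here, so reads of the pair cannot be told apart.

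Other genes of adenosine uptake and conversion were mostly lower: of 14 tested, 8 were called lower and 1 higher, with a median log2 fold change of -0.20. Of all tested genes, 29.9% were called lower and 29.7% higher. The gene called higher was Dpp4, which encodes CD26. The Dpp4 call was lost in 9 of the 18 alternatives, among them leaving out ctrl-Treg 1 or 2, with log2 fold changes between 0.0064 and 0.15. With libraries scaled by their totals alone the list had 9 lower and 0 higher. Slc29a2 and Slc29a3, which encode the transporters ENT2 and ENT3, fell by 0.94 and 0.80 on the log2 scale. Adk, the kinase that turns adenosine back into AMP, went from 27.8, 26.9 and 26.4 CPM to 16.5, 16.2 and 17.4 CPM (log2 fold change -0.69), and the AMP deaminase gene Ampd2 fell by 0.64 on the log2 scale. The Ada to Adk ratio of FPKM was 0.954 in ctrl-Treg and 0.668 in Sora-Treg (geometric means). With libraries scaled by their totals alone, the median gene was 0.12 lower on the log2 scale in Sora-Treg, and 2862 genes were called higher and 5614 lower in place of 3994 and 4028. Ada and Slc29a1 were lower under both scalings. The B cell and dendritic cell marker sums were lower in Sora-Treg as well, and their part in these falls was not tested. Without ctrl-Treg 1 and 2, which leaves ctrl-Treg 3 alone, the log2 fold change of Ada was -1.32. Those sums differed little among the ctrl-Treg libraries (B cell 10.85, 11.13 and 10.02 CPM, dendritic 16.7, 17.2 and 15.3 CPM), so this value cannot show their part.

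Among the phosphodiesterases, Pde4d more than doubled, Pde3b rose and Pde4b did not pass the test. Pde4d stood at 85.1, 83.5 and 85.9 CPM in ctrl-Treg and at 186.9, 186.5 and 191.6 CPM in Sora-Treg. The nearest libraries of the groups were 100.6 CPM apart, and the log2 fold change was 1.15 (SE 0.03, adjusted p = 2.28e-18 by edgeR), a 2.22-fold rise. On log2(FPKM + 1) it was 0.73. Pde3b, a phosphodiesterase that cyclic GMP inhibits, stood at 62.8, 60.0 and 63.4 CPM in ctrl-Treg and at 95.5, 99.2 and 100.7 CPM in Sora-Treg, with a log2 fold change of 0.67 (SE 0.04, adjusted p = 1.51e-12 by edgeR). Pde4b, whose product is a main cAMP phosphodiesterase of activated T cells, stood at 57.7, 58.1 and 59.8 CPM in ctrl-Treg and at 57.8, 56.2 and 60.0 CPM in Sora-Treg. Its groups overlapped, and the log2 fold change was -0.01 (SE 0.04, adjusted p = 0.814 by edgeR). With libraries scaled by their totals alone, Pde4b was called lower, at -0.13 (edgeR adjusted p = 0.0131).

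**Figure D2:**
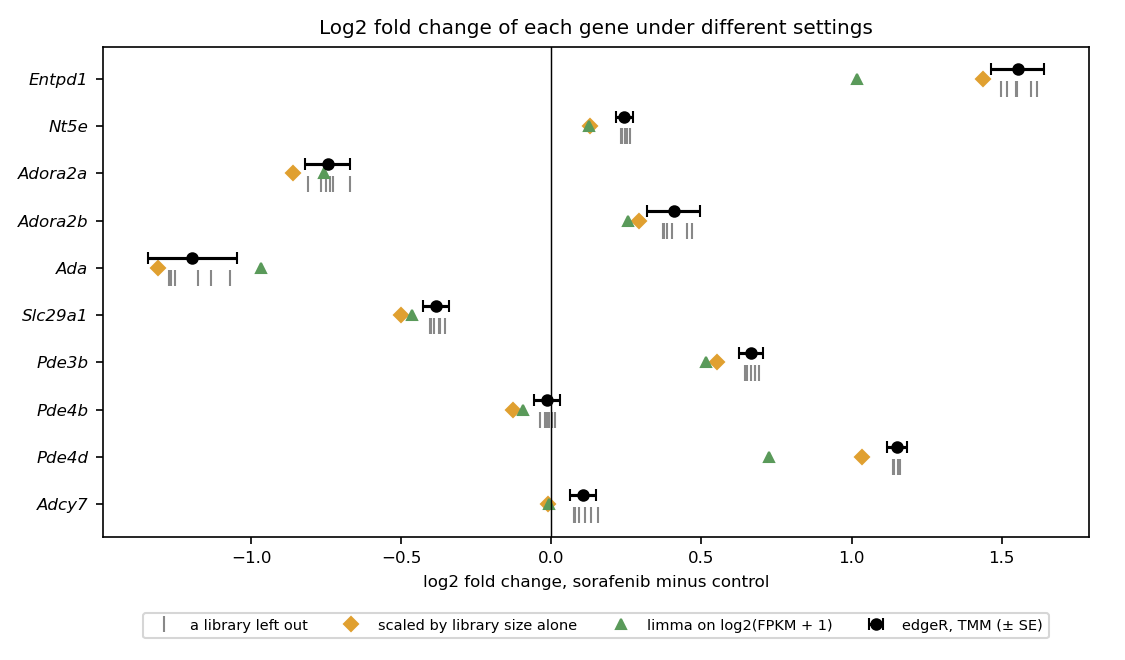
Log2 fold change of each gene (horizontal axis, Sora-Treg minus ctrl-Treg) from edgeR with TMM scaling (circles, bars ± SE), with each library left out in turn (ticks), with scaling by library totals (diamonds) and from limma on log2(FPKM + 1) (triangles). The symbols stay on 1 side of 0 for each gene but Pde4b and Adcy7, and the limma value of Entpd1 (1.02) and Pde4d (0.73) lies below the edgeR value.

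The family of cAMP phosphodiesterases held 10 tested genes, of which 6 were called higher (Pde1b, Pde2a, Pde3b, Pde4a, Pde4d and Pde7a) and Pde11a lower, with a median log2 fold change of 0.22. Pde2a, which cyclic GMP stimulates, rose from 16.8, 17.1 and 20.5 CPM to 34.2, 33.6 and 33.7 CPM (log2 fold change 0.90). Pde11a, at no more than 4.89 CPM in any library, fell by 0.79 on the log2 scale. Pde4a rose by a log2 fold change of 0.39, Pde7a by 0.25 and Pde1b by 0.19, while Pde8a (0.15) and Pde4c (0.06) were not called. The Pde1b call was lost with libraries scaled by their totals alone, and its lowest value over the alternatives was 0.07. The family's split was then 5 higher and 2 lower. The family's summed FPKM was 49.0, 48.6 and 50.2 in ctrl-Treg and 60.2, 60.9 and 60.7 in Sora-Treg, with no overlap (exact permutation p = 0.1).

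Which phosphodiesterase took the greatest share depended on the gene length used. The deposited FPKM imply a single length for each gene, and that of Pde4d is 53295 bases, 4.44 times the 12006 exonic bases of GENCODE M21. Among 10403 genes with at least 50 counts in each library, the median of that ratio was 0.862, and 0.952% of genes were above 4. By the deposited FPKM, Pde4d made up 3.36% ± 0.0369 (SD, n = 3) of the family in ctrl-Treg and 5.60% ± 0.0855 (SD, n = 3) in Sora-Treg, below Pde3b (24.8 and 29.5%), Pde7a (23.7 and 21.1%) and Pde1b (20.9 and 17.9%). By the GENCODE length, Pde4d made up 13.8 and 22.2%, Pde3b 13.3 and 15.3%, and Pde7a 27.0 and 23.2%. The rise of the Pde4d share was free of overlap by either length. The share of Pde4b was lower in Sora-Treg by either length, 5.95 against 4.43% as deposited. Pde2a made up 6.52 and 9.14%, Pde8a 5.95 and 4.96%, Pde4a 3.92 and 3.86%, and Pde4c 3.70 and 2.90% as deposited. A length cancels in a comparison of a single gene between groups, so the fold changes do not turn on it. Pde3b lies on chromosome 7 (114415222 to 114537938), Pde4b on chromosome 4 (102087332 to 102607275) and Pde4d on chromosome 13 (108654177 to 109955969), all on the plus strand. The annotation places 5 other genes within the span of Pde4d, none of them in the count table.

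**Figure D3:**
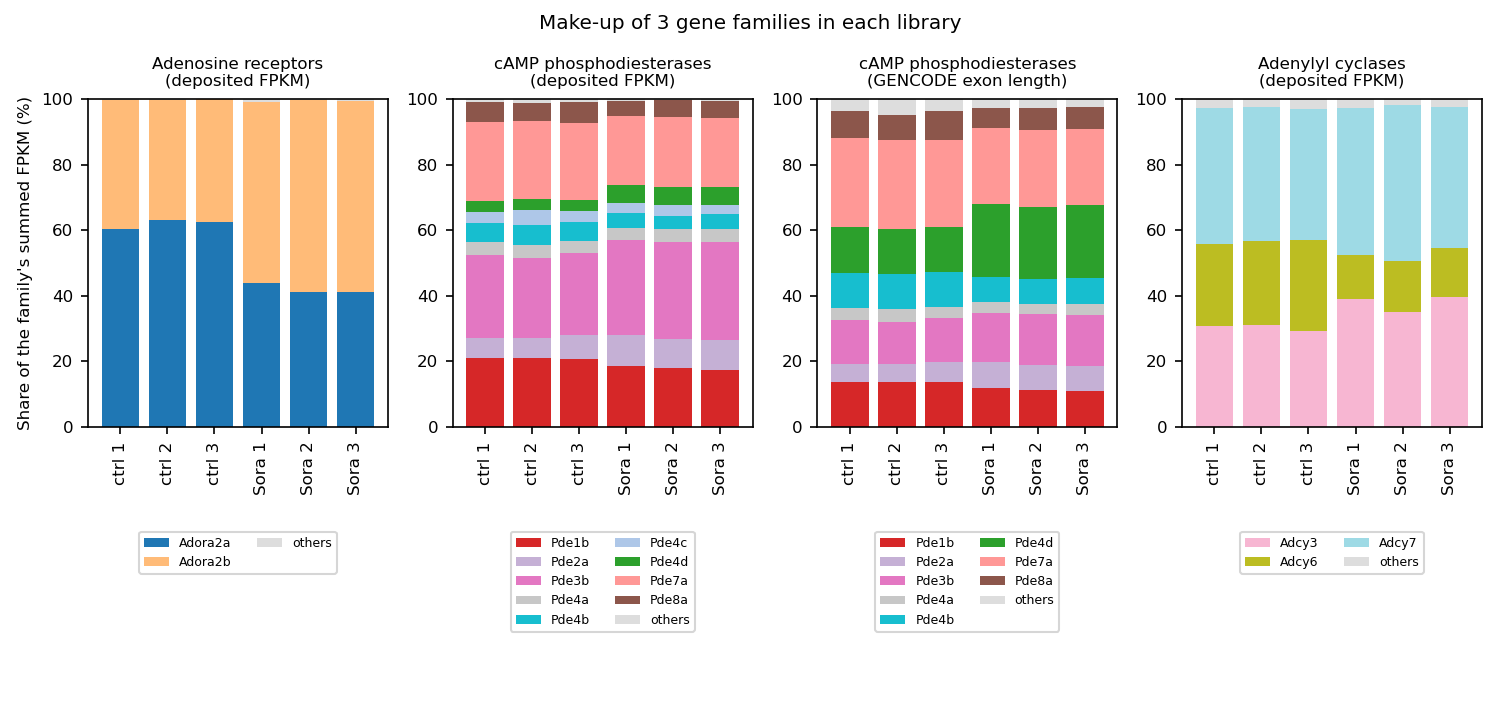
Share of the summed FPKM (vertical axis, %) taken by each gene of 3 families in each of the 6 libraries, with the phosphodiesterases drawn by the deposited FPKM and by the exon length of GENCODE M21. The Adora2a part shrinks from between 60.3 and 63.1% to between 41.2 and 43.9%, and the Pde4d part widens from left to right in both phosphodiesterase panels.

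Adcy7, an adenylyl cyclase of blood cells that responds to Gs and to Gβγ, differed little. It stood at 80.7, 78.9 and 75.6 CPM in ctrl-Treg and at 86.2, 88.2 and 78.9 CPM in Sora-Treg. The groups overlapped, since Sora-Treg 3 was below ctrl-Treg 1 and level with ctrl-Treg 2. The log2 fold change of 0.11 ± 0.04 (SE) was just past the threshold (edgeR adjusted p = 0.0450). The call was lost in 12 of 18 alternative settings, among them leaving out ctrl-Treg 2 or 3 or Sora-Treg 1 or 2 (log2 fold changes of 0.11, 0.08, 0.09 and 0.07), and with libraries scaled by their totals alone the value was -0.01. Adcy7 lies on chromosome 8 (88272190 to 88329965, plus strand).

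Of 6 adenylyl cyclase genes tested, Adcy3 and Adcy7 were called higher and Adcy6 lower, with a median of -0.37, and the split was 1 higher and 2 lower with libraries scaled by their totals alone. Adcy6, a cyclase that calcium inhibits, fell from 86.3, 88.9 and 93.8 CPM to 46.7, 50.9 and 48.7 CPM, a log2 fold change of -0.88. Adcy3, which calmodulin can stimulate, went from 38.8, 38.8 and 35.7 CPM to 48.4, 42.1 and 46.8 CPM (log2 fold change 0.28), a call that was lost on log2 FPKM. By the deposited FPKM, Adcy7 held 40.7% of the family in ctrl-Treg and 45.1% in Sora-Treg, Adcy3 held 30.4 and 37.9%, and Adcy6 held 26.1 and 14.6%. By the GENCODE length Adcy6 was the highest of the family in ctrl-Treg, at 41.2%, and Adcy7, at 36.3%, came after it. In Sora-Treg Adcy7 was the highest by either length. The summed FPKM of the family was 27.3 ± 0.457 (SD, n = 3) in ctrl-Treg and 24.5 ± 0.703 (SD, n = 3) in Sora-Treg as deposited, but with TMM scaling the groups overlapped (26.2 and 25.5, exact permutation p = 0.2).

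Pairs of genes within a library set the changes against each other without any scaling between libraries. The Adora2a to Adora2b ratio of FPKM went from 1.64 to 0.735 (geometric means of 3 libraries), with log2 ratios of 0.62, 0.79 and 0.73 in ctrl-Treg and of -0.33, -0.51 and -0.49 in Sora-Treg. The Entpd1 to Ada ratio, an enzyme that starts adenosine production over one that ends it, went from 0.337 to 2.29. The Pde3b to Pde4b ratio went from 4.16 to 6.67. The Pde4b to Pde4d ratio went from 1.77 to 0.790. The level of a ratio, unlike its change, depends on the gene lengths, and the implied length of Nt5e was 0.416 and that of Pde4b 1.97 times the GENCODE length. None of the 6 ratios computed overlapped between the groups, and each had an exact permutation p of 0.1, two-sided, also after Benjamini-Hochberg adjustment over the 6. With 3 against 3 libraries no smaller p can be reached. Each ratio includes a gene whose own groups did not overlap, as was so for 63.7% of all tested genes. The share of other gene pairs whose ratio does not overlap was not computed.

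Outside the 10, 99 of the other 129 pathway genes in the table could be tested. Of the 99, 36 were called higher, 31 lower and 32 neither, with a median log2 fold change of 0.04. Of all tested genes, 29.7% were called higher and 29.9% lower. With libraries scaled by their totals alone, 25 were called higher and 42 lower. Log2 fold changes given for single pathway genes outside the 10 had SEs between 0.03 (Akap13) and 0.21 (Slc29a2). The other Gs-coupled receptors, which feed the same cyclases, counted 5 lower and 2 higher of 9 tested, with a median of -0.90. Among those lower was Vipr2, at 17 counts or fewer in each library. Its call was lost in 8 of the 12 alternatives that tested it. The prostaglandin E2 receptor genes Ptger4 and Ptger2 went from 116.8, 120.2 and 112.4 to 62.5, 60.9 and 63.3 CPM and from 34.3, 37.0 and 37.6 to 16.8, 17.3 and 18.2 CPM, log2 fold changes of -0.90 and -1.05. Calcrl, part of the receptors for CGRP and adrenomedullin, fell by 1.39 on the log2 scale, and Vipr1, a receptor for vasoactive intestinal peptide, fell by 1.24. Gipr, the receptor for the gut hormone GIP, moved the other way, from 2.97, 3.30 and 3.76 CPM to 275.1, 267.7 and 281.8 CPM, a log2 fold change of 6.37. It was placed on the list because an earlier result on it was known, so its rise is no independent evidence. The other receptor gene called higher was Hrh2, with a log2 fold change of 0.87.

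**Figure D4:**
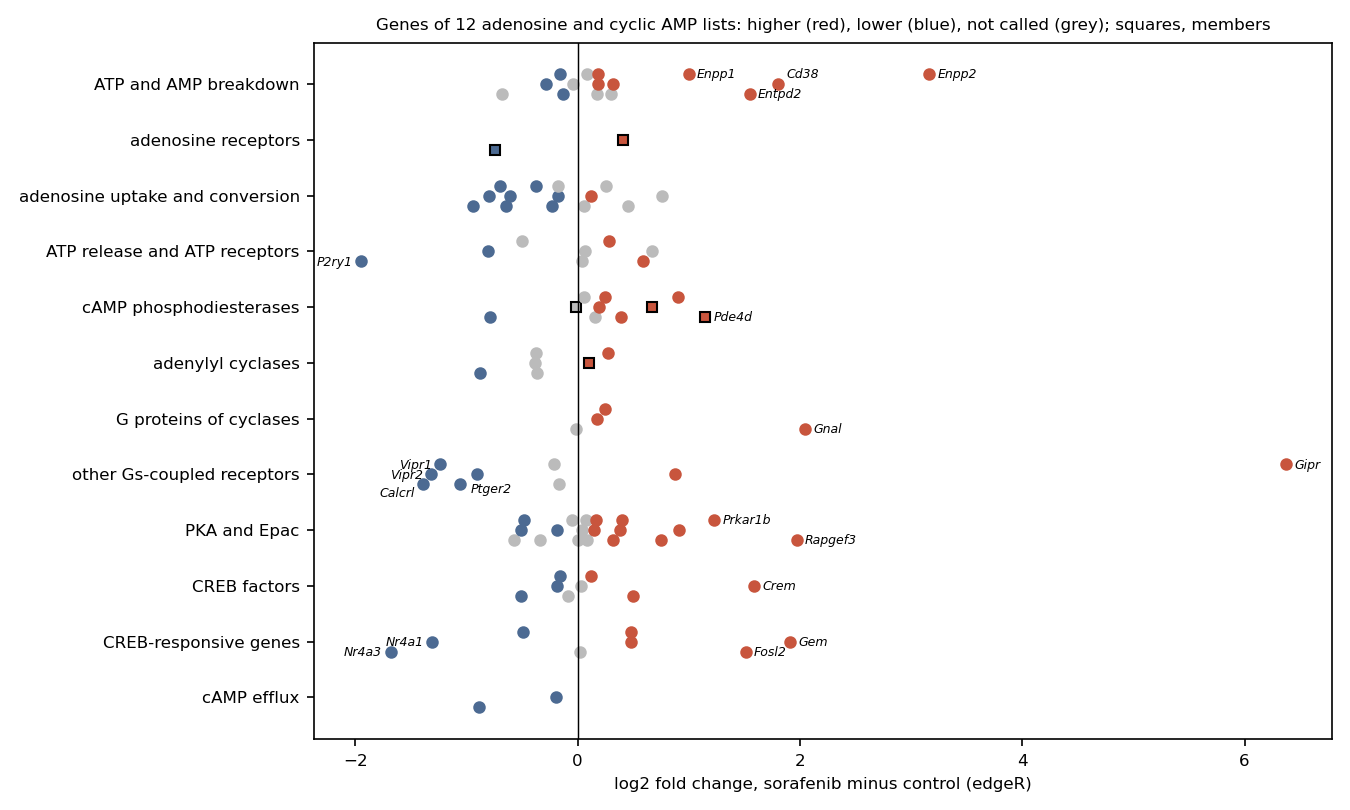
Log2 fold change (horizontal axis, Sora-Treg minus ctrl-Treg, edgeR) of each tested gene on 12 lists of the pathway, called higher (red), lower (blue) or not called (grey). Squares are genes of the 10 that fall on a list, and names are given for called genes beyond a log2 fold change of 1. Gipr stands alone at 6.37, and the other labelled Gs-coupled receptors lie below 0. Hrh2, called higher at 0.87, carries no label.

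At the far end of the pathway, transcripts that cAMP can raise through CREB moved in both directions. Of 8 such genes tested, 4 were called higher and 3 lower, with a median of 0.25. Gem, a small GTPase, rose from 34.1, 38.2 and 36.1 CPM to 136.2, 135.1 and 135.2 CPM (log2 fold change 1.91), and the AP-1 gene Fosl2 rose by a log2 fold change of 1.51. The orphan receptor genes Nr4a3 and Nr4a1, which also answer to T cell receptor signals, fell by 1.68 and 1.31 on the log2 scale. Of the 8 CREB factors and coactivators, 3 were called higher and 3 lower, or 2 higher and 5 lower with libraries scaled by their totals alone. Crem, whose short products include the repressor ICER, rose from 38.5, 37.4 and 42.0 CPM to 116.7, 122.6 and 114.3 CPM (log2 fold change 1.59), Ep300, a coactivator, rose by 0.50, and Creb1 fell by 0.51 on the log2 scale. The counts are per gene and do not separate ICER from longer Crem transcripts.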

How the data were processed

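RNA-seq was done on GFP+ Treg cells differentiated with or without sorafenib, 3 libraries each. The authors deposited a table of gene counts and a table of FPKM. The deposited FPKM are the count over a gene length, the same in all libraries, and over the total of the library. For alignment the study's methods name Bowtie2 and GRCm38, whereas the submitters' processing notes list fastp, HISAT2, HTSeq, R 3.2.0, DESeq2 and GRCm39; the annotation and strand setting are not given in the sources used here. Columns of per-sample values left unused numbered 0.

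Counts were tested with edgeR 4.0.16 (TMM, filterByExpr, quasi-likelihood test, Benjamini-Hochberg adjustment over 13463 genes) in R 4.3.3. A standard error is the absolute log2 fold change over the square root of F. Shares and ratios of FPKM were compared by exact two-sided permutation tests. Alternatives used DESeq2 1.42.0, limma 3.58.1 on log2(FPKM + 1) or log2(FPKM + 0.1) with a filter of 0.5 FPKM or none, other scalings and filters, and each library left out. The scripts were tested on simulated data. The totals allow 3 counts to be seen as 0.0795 to 0.0976 CPM, and the biological coefficient of variation was 4.29%.

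The members and lists were chosen with earlier results of these data known. Beyond the 10 members, each list names at most 4 genes, those with the largest absolute log2 fold change among called genes whose mean log2 CPM was 0 or more, and each receptor, phosphodiesterase and cyclase subtype at 1 FPKM or more in a group. Ptger4, Hrh2, Dpp4, P2ry1, Entpd2, Vipr2, Adcy9, Adora1, Adora3 and the single cell type markers fall outside that rule and were chosen after their values were seen. Coordinates come from RefSeq GRCm38.p6, matched by symbol, and are not those of the counting. Promoter windows matched 8 of the 10 genes; Adora2a and Pde3b had no entry. ICER, on a list as Icer, is not a symbol of the table.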

Additional observations from a re-analysis of the deposited data

How the results depend on the processing

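Of the 9 called genes, 8 kept call and direction in each of the 18 alternatives: Entpd1, Nt5e, Adora2a, Adora2b, Ada, Slc29a1, Pde3b and Pde4d. The causes of the changes below were not tested. Adcy7 (0.11) was 0.0671 with upper-quartile scaling, 0.0902 with each gene of any count kept, 0.11 in DESeq2, 0.16 without control replicates 1 and 2 (an alternative added after seeing the data), -0.0104 with library totals alone, and -0.00861, -0.00939 and -0.00861 in limma on log2(FPKM + 1), log2(FPKM + 0.1) and log2(FPKM + 1) without a filter, with no call in any of these; leaving out 1 library gave 0.0740 to 0.154. Pde4b was called lower with library totals alone (-0.13), and leaving out 1 library gave -0.0371 to 0.0115, reversed without control replicate 3 (0.000529) and sorafenib replicate 2 (0.0115). Beyond a log2 fold change of 1, limma called 1 member higher in each of its 3 settings and 0 lower on log2(FPKM + 1) with or without the filter.

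Over all genes, limma called 2502, 2494 and 2577 higher in place of 3994, and beyond the fold limit 275, 454 and 274 higher in place of 848, and 189 and 185 lower, on log2(FPKM + 1) with and without the filter, in place of 669. The summed FPKM difference with TMM scaling was -1.85 for receptors (main -2.99), 15.7 for phosphodiesterases (11.3) and -0.726 for cyclases (-2.79), and by GENCODE length, also added after seeing the data, 14.6 for phosphodiesterases and -6.48 for cyclases. By that length the share differences in percentage points were 1.999 for Pde3b (4.72), -3.04 for Pde4b (-1.53), 8.40 for Pde4d (2.24) and 8.48 for Adcy7 (4.39).

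With the replicate number as a block, Adcy7 was at 0.11 and no member's call changed; of the other pathway genes Adcy9 gained and Vipr2 lost its call. Libraries of the same number correlated at -0.0438, 0.0591 and 0.0299 in their deviations from the group means. A shared mouse or culture with a small effect could also give such values, so they cannot decide whether the numbers pair the libraries. Of the 67 other pathway genes called, 44 kept call and direction in each alternative that tested them. At this depth 30 listed genes, Adora1 and Adora3 among them, were too low to be tested.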

Other observations

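Genes between the receptors and CREB, not described above, moved in both directions. Of 4 G protein genes tested, 3 were called higher and 0 lower: Gnal, a stimulatory alpha subunit, rose from 6.32, 6.43 and 5.64 CPM to 25.1, 24.9 and 26.1 CPM (log2 fold change 2.05), while Gnai2, an inhibitory subunit, and Gnas rose by 0.24 and 0.17 on the log2 scale. The Gnas call was lost with libraries scaled by their totals alone (lowest value 0.06), where the split of the list was 2 higher and 1 lower. Of 19 genes of protein kinase A, its anchors and Epac, 9 were called higher and 3 lower, with a median of 0.09, but 5 higher and 6 lower with libraries scaled by their totals alone. Rapgef3, the cAMP-gated exchange factor Epac1, rose from 2.06, 2.42 and 1.63 CPM to 8.96, 7.34 and 7.78 CPM (log2 fold change 1.97). Prkar1b, a regulatory subunit, Akap13, an anchoring protein, and Pkib, an inhibitor of the kinase, rose by log2 fold changes of 1.23, 0.92 and 0.75. Crtc1, a CREB coactivator, had a log2 fold change of -0.19, a call lost in 7 of the 18 alternatives, among them leaving out control replicate 2 or 3 or sorafenib replicate 2 or 3 (range -0.30 to -0.14).

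Of 8 tested genes of ATP release and of the P2rx and P2ry receptor families, grouped by symbol and not by ligand, 2 were called higher and 2 lower. P2rx7, an ATP-gated channel, fell from 120.0, 116.9 and 121.4 CPM to 70.0, 66.9 and 67.9 CPM (log2 fold change -0.81), P2ry10 and P2rx4 rose by 0.59 and 0.29 on the log2 scale, and P2ry1 was called lower at few counts; the P2ry1 call was lost without control replicates 1 and 2, and that of P2rx4 in limma without a filter. Both genes of cAMP efflux, Abcc5 (log2 fold change -0.89) and Abcc4 (-0.20), were called lower, the latter not without control replicate 1, sorafenib replicate 1 or sorafenib replicate 2 (range over the alternatives -0.31 to -0.16).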
